A study of Mus musculus with 6 samples.

Results

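The granule genes of early neutrophils and monocytes, 10 in number, were followed across 6 RNA-seq libraries of EML cells: Mpo, Elane, Prtn3, Ctsg, Ms4a3, Lyz1, Lyz2, S100a8, S100a9 and Ltf. They were found by the RefSeq accession of their entry, and 10 of 10 had an entry among the 23146 used. EML is a mouse bone marrow progenitor line that was immortalised with a dominant-negative retinoic acid receptor, and the cells of all 6 libraries were kept in IMDM with 20% fetal bovine serum and 200 ng/ml stem cell factor. The libraries were 2 of KAI1 knockdown against 2 of the knockdown control, and 1 of KAI1 overexpression against 1 of the overexpression control. KAI1 is a tetraspanin membrane protein, and its gene is Cd82. All samples carry the labels strain BDF1, tissue bone marrow and cell type basophil. The sources used here do not say how KAI1 was lowered or raised. Libraries of the knockdown arm are numbered as replicates, and no separate cultures are named, so the p-values reflect the spread among these samples alone, and that spread may be technical.

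Neutrophils and monocytes fill their granules in waves as they mature. Promyelocytes make the primary granules, which hold myeloperoxidase and the serine proteases neutrophil elastase, proteinase 3 and cathepsin G. Lactoferrin enters the secondary granules at a later stage, and S100A8 with S100A9 is abundant in the cytoplasm of maturing neutrophils and monocytes. The factors PU.1, C/EBP and MYB are known to drive many of these genes.

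Values are RPKM, which divides reads by transcript length and by sequencing depth, so levels of different genes can be set side by side. The depth estimated from the steps of low values was 12500000 and 18900000 reads in KAI1 knockdown, 18500000 and 9610000 in the knockdown control, 19000000 in KAI1 overexpression and 25100000 in the overexpression control. Cd82 stood at 7.65 and 6.91 RPKM in KAI1 knockdown and at 43.9 and 13.8 RPKM in the knockdown control. It stood at 15.2 RPKM in KAI1 overexpression and at 11.9 RPKM in the overexpression control. Both knockdown libraries lay below both of their controls, whose own values differed widely, and by limma the log2 difference of Cd82 was -1.64 (adjusted p = 0.83). The basophil label was set against 9 mast cell and basophil markers, of which 9 had an entry and 0 were listed at 0 in every library. Mcpt8, a basophil protease, stood between 116 and 3908 RPKM, whereas Fcer1a, the binding chain of the IgE receptor, was at 0 RPKM in the first of the KAI1 knockdown libraries and in knockdown control replicate 2. Cd34, a marker of progenitors, stood at 65.7 and 77.9 RPKM in KAI1 knockdown and 0.859 and 64.7 RPKM in the knockdown control. It stood at 15.9 RPKM in KAI1 overexpression and 66.4 RPKM in the overexpression control. The other progenitor markers were mixed. Cd48 and Sox4 were also lowest in knockdown control replicate 1, at 23.4 and 3.44 RPKM. Kit, Ly6a and Gata2 were highest there, at 437, 748 and 235 RPKM, and Flt3 stayed at or under 0.358 RPKM. Which cells the libraries held was not tested.

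The start regions of the 4 primary granule enzymes are shown because PU.1 is known to act on several of these genes and their levels differed widely. Each run is the 250 bases before the gene start on the gene's own strand, 5′ to 3′, from RefSeq on GRCm38.p6, a later build than the mm9 of the value tables. Capitals mark GAGGAA, a core often bound by PU.1. The windows are chr11:87793534-87793783 on the plus strand for Mpo, chr10:79886062-79886311 on the plus strand for Elane, chr10:79879417-79879666 on the plus strand for Prtn3 and chr14:56102575-56102824 on the minus strand for Ctsg.
Mpo: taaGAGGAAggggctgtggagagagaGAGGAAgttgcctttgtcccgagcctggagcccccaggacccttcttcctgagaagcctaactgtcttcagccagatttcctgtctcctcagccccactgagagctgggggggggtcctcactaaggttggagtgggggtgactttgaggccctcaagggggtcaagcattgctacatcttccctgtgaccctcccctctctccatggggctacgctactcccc
Elane: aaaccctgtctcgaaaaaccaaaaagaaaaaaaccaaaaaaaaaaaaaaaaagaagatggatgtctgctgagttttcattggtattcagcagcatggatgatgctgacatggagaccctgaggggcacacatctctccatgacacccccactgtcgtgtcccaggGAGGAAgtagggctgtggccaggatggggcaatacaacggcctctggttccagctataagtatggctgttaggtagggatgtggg
Prtn3: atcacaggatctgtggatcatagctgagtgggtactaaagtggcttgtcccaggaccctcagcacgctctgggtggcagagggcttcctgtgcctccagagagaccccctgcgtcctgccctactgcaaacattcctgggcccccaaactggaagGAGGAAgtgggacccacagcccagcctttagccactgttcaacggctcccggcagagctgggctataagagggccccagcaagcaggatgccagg
Ctsg: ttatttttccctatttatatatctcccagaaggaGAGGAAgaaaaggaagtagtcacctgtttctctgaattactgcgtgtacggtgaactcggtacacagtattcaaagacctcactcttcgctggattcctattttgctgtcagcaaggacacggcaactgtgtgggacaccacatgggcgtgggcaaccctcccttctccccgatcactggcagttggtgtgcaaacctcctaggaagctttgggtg

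GAGGAA, searched on both strands, was in 6 of the 10 start regions and in 23.3% of 32841 mouse start regions of the same length. It began 247 and 224 bases before the start in Mpo, 85 in Elane, 95 in Prtn3 and 216 in Ctsg. S100a8 and Ltf also held it, while Ms4a3, Lyz1, Lyz2 and S100a9 had no match in this window. TTGCNNAA, a C/EBP pattern, was in 3 of 10 regions (Lyz1, S100a9 and Ltf) against 9.57% of all, and AACNG, a short MYB pattern, in 9 of 10 against 74.2%. The RUNX pattern TGTGGT was in 3 of 10 against 14%. The GATA pattern AGATAA was in 2 of 10 start regions against 9.99%. All patterns were searched on both strands and none contains another. Elane and Prtn3 held GAGGAA and AACNG as Mpo and Ctsg did, while of these genes only Ctsg held the RUNX pattern. The levels of Elane and Prtn3 were far lower, and a link of these letters to level was not tested. A match is a description of the letters and not a site of binding.

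The granule genes ranged from high to undetectable RNA levels in these cells. Ctsg and Mpo reached 1295 and 750 RPKM, Ms4a3 and Lyz2 reached 18.8 and 14.7 RPKM, and Lyz1, Prtn3, S100a8 and S100a9 stood between 0 and 17.4 RPKM. Elane and Ltf did not exceed 0.13 and 0.0186 RPKM. Of the 10 genes, 8 reached 1 RPKM in at least 1 library. In 6 of the 10 the lowest pair of values came from knockdown control replicate 1 and KAI1 overexpression. This held for 15.3% of the 10112 entries that averaged 1 RPKM or more over the 6 libraries. Elane and Ltf fall under that average and are not among the 6. Ctsg was the 1 member with its highest pair in those libraries, a pattern also held by 15.3%.

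**Figure D1:**
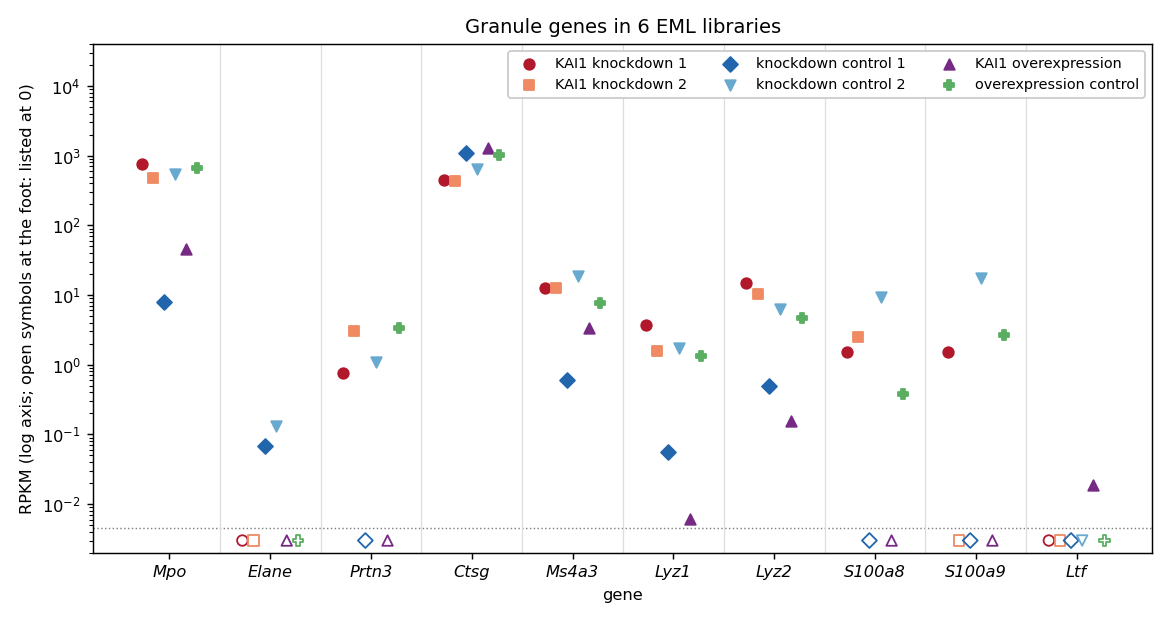
RPKM of the 10 granule genes in each of the 6 EML libraries on a log axis, with open symbols at the foot for genes listed at 0. The lowest Mpo values, 7.84 RPKM in a knockdown control and 45.8 RPKM in KAI1 overexpression, stand apart, while Ctsg stood between 434 and 1295 RPKM in all 6 libraries.

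Mpo encodes myeloperoxidase, the haem enzyme that makes hypochlorous acid in the phagosome. Its entry spans chr11:87607286-87617914 on mm9. Mpo stood at 750 and 470 RPKM in KAI1 knockdown and at 7.84 and 538 RPKM in the knockdown control, with means of 610 ± 198 and 273 ± 375 RPKM (SD, n = 2 each). The groups overlapped, since one control lay within the knockdown values and the other far under them. By limma, the log2 difference of knockdown minus control on the log2(RPKM + 1) scale was 3.11 (SE 2.04, 95% interval -2.37 to 8.58, adjusted p = 0.83 over all entries tested). In the overexpression arm Mpo stood at 45.8 RPKM in KAI1 overexpression and 661 RPKM in the overexpression control, a log2 ratio of -3.82. Knockdown control replicate 1 minus replicate 2 was larger in size, at -5.93. About 25697 and 24425 reads lay behind the knockdown values, 399 and 14222 behind the knockdown controls, 2395 behind KAI1 overexpression and 45702 behind the overexpression control, so counting error is small against these gaps.

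Elane and Prtn3 encode neutrophil elastase and proteinase 3, serine proteases whose genes lie 3.14 kb apart at chr10:79349057-79350961 and chr10:79342412-79345917 on mm9. Elane was listed at 0 in both KAI1 knockdown libraries and at 0.0678 and 0.13 RPKM in the knockdown control, which is about 1 read in each control. It was listed at 0 in KAI1 overexpression and in the overexpression control, where 3 reads would give 0.16 and 0.121 RPKM. Elane was thus not detectable at this depth beyond single reads. Prtn3 stood at 0.753 and 3.04 RPKM in KAI1 knockdown and at 0 and 1.10 RPKM in the knockdown control, and the groups overlapped. Its log2 difference was 0.88 (SE 0.61, 95% interval -0.77 to 2.52, adjusted p = 0.83 by limma), or 2.24 with a pseudocount of 0.1. Prtn3 was listed at 0 in KAI1 overexpression and stood at 3.36 RPKM in the overexpression control, with about 87 reads. Mpo exceeded Prtn3 155-fold to 997-fold in the 4 libraries where Prtn3 was above 0.

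Ctsg, at chr14:56718718-56721411 on mm9, encodes cathepsin G, a protease of neutrophil primary granules that mast cells also store. Ctsg stood at 444 and 434 RPKM in KAI1 knockdown and at 1080 and 643 RPKM in the knockdown control, with means of 439 ± 7.02 and 862 ± 309 RPKM (SD, n = 2 each). Both knockdown libraries lay below both controls. The log2 difference was -0.92 (SE 0.36, 95% interval -1.90 to 0.05, unadjusted p = 0.0591, adjusted p = 0.83 by limma), so the difference did not pass the test. Ctsg stood at 1295 RPKM in KAI1 overexpression and 1034 RPKM in the overexpression control, a log2 ratio of 0.32. Its highest and lowest libraries differed 2.98-fold, and it ranked between 155 and 311 among the 23146 entries by RPKM. The ratio of Mpo to Ctsg was 1.69 and 1.08 in KAI1 knockdown, 0.00725 and 0.836 in the knockdown control, 0.0354 in KAI1 overexpression and 0.639 in the overexpression control. The pair of primary granule genes therefore moved apart in the libraries where Mpo was low.

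Ms4a3, at chr19:11703987-11715324 on mm9, encodes a multi-pass membrane protein that marks granulocyte and monocyte progenitors in mouse bone marrow. It stood at 12.6 and 12.4 RPKM in KAI1 knockdown and at 0.601 and 18.8 RPKM in the knockdown control, and the groups overlapped. The log2 difference was 1.26 (SE 1.25, 95% interval -2.10 to 4.61, adjusted p = 0.842 by limma). Ms4a3 stood at 3.39 RPKM in KAI1 overexpression and 7.73 RPKM in the overexpression control, a log2 ratio of -0.99 that lies just inside 2-fold. Across the 6 libraries its log2(RPKM + 1) followed that of Mpo with a Pearson correlation of 0.94, given as a description.

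Lyz1 and Lyz2 encode lysozymes that cut bacterial cell walls, and in the mouse Lyz2 is the form of neutrophils and macrophages while Lyz1 is that of Paneth cells of the gut. They are neighbours 5.52 kb apart, at chr10:116724851-116729924 and chr10:116714597-116719328 on mm9. Their coding sequences are 444 bases each and 95% identical in GENCODE M21, so the authors' read assignment could split reads between them and the 2 levels are uncertain. The first 120 coding bases of each are shown because 11 of the 22 differing bases lie there, and capitals mark the bases that differ.
Lyz1: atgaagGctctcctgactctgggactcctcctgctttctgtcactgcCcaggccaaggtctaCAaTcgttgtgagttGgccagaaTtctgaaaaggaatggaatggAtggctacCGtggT
Lyz2: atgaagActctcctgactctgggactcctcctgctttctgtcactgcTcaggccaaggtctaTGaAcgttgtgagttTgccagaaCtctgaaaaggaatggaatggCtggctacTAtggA
Coding bases 277 to 396 of each are shown as the most alike stretch, with 1 differing base in capitals.
Lyz1: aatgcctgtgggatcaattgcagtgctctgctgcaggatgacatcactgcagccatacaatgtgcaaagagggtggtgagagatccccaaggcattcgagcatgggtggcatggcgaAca
Lyz2: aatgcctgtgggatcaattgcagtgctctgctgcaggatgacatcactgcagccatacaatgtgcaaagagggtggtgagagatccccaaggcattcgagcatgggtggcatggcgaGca

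The longest run without a difference was 118 bases. Of all stretches of 36 bases in the Lyz2 transcript, 27.3% also occurred in the Lyz1 transcript. Elane, Prtn3 and Ctsg shared no such stretch, with coding identities of 51.4% to 59.4%, and neither did S100a8 and S100a9, with 49.6%.

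Lyz2 stood at 14.7 and 10.4 RPKM in KAI1 knockdown and at 0.499 and 6.31 RPKM in the knockdown control, with means of 12.6 ± 3.03 and 3.40 ± 4.11 RPKM (SD, n = 2 each). Both knockdown libraries lay above both controls. The log2 difference was 2.02 (SE 0.82, 95% interval -0.18 to 4.22, unadjusted p = 0.0639, adjusted p = 0.83 by limma), which did not pass the test. Lyz2 stood at 0.158 RPKM in KAI1 overexpression and 4.66 RPKM in the overexpression control, a log2 ratio of -2.29 on the log2(RPKM + 1) scale that became -4.20 with a pseudocount of 0.1. About 4 reads lay behind the overexpression value and 154 behind its control.

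Lyz1 stood at 3.66 and 1.55 RPKM in KAI1 knockdown and at 0.0566 and 1.71 RPKM in the knockdown control, with overlapping groups. Its log2 difference was 1.03 (SE 0.61, 95% interval -0.60 to 2.66, adjusted p = 0.83 by limma), or 2.23 with a pseudocount of 0.1. It was given as 0.00617 RPKM in KAI1 overexpression, less than the 0.0416 RPKM that 1 read is worth there, and as 1.34 RPKM in the overexpression control. Under 1 read, this value is no whole count. Lyz2 exceeded Lyz1 in every library, 4.02-fold and 6.73-fold in KAI1 knockdown and 8.82-fold and 3.69-fold in the knockdown control.

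S100a8 and S100a9, at chr3:90472993-90473956 and chr3:90496555-90499613 on mm9, encode the subunits of calprotectin, a protein that binds calcium, zinc and manganese. S100a8 stood at 1.53 and 2.52 RPKM in KAI1 knockdown and at 0 and 9.41 RPKM in the knockdown control. S100a9 stood at 1.52 and 0 RPKM in KAI1 knockdown and at 0 and 17.4 RPKM in the knockdown control. For both genes knockdown control replicate 1 was at 0, and knockdown control replicate 2 was the highest of all 6 libraries. The log2 differences were -0.11 (SE 1.18, 95% interval -3.29 to 3.06, adjusted p = 0.985 by limma) for S100a8 and -1.43 (SE 1.52, 95% interval -5.51 to 2.64, adjusted p = 0.846) for S100a9. Both were listed at 0 in KAI1 overexpression, and the overexpression control held 0.378 RPKM of S100a8 and 2.64 RPKM of S100a9. S100a9 was listed at 0 in KAI1 knockdown replicate 2, where S100a8 had about 23 reads, so the subunits did not appear together in every library.

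Ltf, at chr9:110921796-110945270 on mm9, encodes lactoferrin, the iron-binding protein of secondary granules. It was listed at 0 in both KAI1 knockdown libraries, both knockdown controls and the overexpression control, and at 0.0186 RPKM, about 1 read, in KAI1 overexpression. In the libraries at 0, a count of 3 reads would give between 0.0435 and 0.114 RPKM. Floors and read numbers cover counting error only.

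Of the 10 granule genes, 8 averaged 1 RPKM or more in the knockdown arm and were tested, since Elane and Ltf stayed under that level. By limma 0 of 8 passed an adjusted p of 0.05, while 0.0297% of the 10113 entries tested did and 336 entries had an unadjusted p under 0.05. The median log2 difference of the 8 was 0.95, against 0.028 over all tested. Prtn3 and Lyz1 averaged 0.549 and 0.882 RPKM in the knockdown control, so they reached the filter through the knockdown libraries. S100a9 averaged 0.76 RPKM in KAI1 knockdown and reached it through a control. The median rests in part on these genes. Lyz2 was the 1 member with both knockdown libraries above both controls, a pattern held by 21.5% of the entries, and Ctsg the 1 with both below, held by 17%. The count of members called and the counts without overlap were thus near the background.

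**Figure D2:**
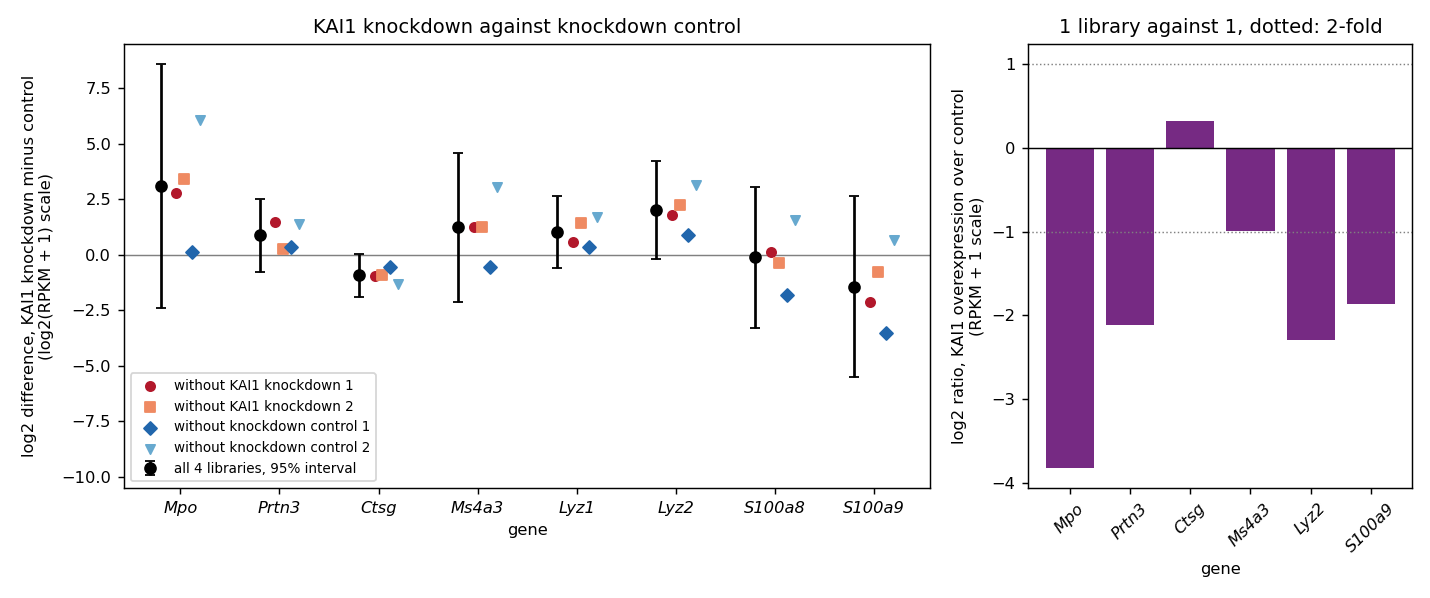
Left, log2 difference of KAI1 knockdown minus control on the log2(RPKM + 1) scale with 95% intervals from limma for the 8 members tested, with all 4 libraries and with each library left out in turn; right, log2 ratio of KAI1 overexpression to its control, 1 library each and no error. Every interval with all 4 libraries includes 0, and the values without either control lie far apart for Mpo.

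The 2 controls lay far apart in these genes. Knockdown control replicate 1 was at least 2-fold below replicate 2 in 7 of the 8 members on the RPKM + 1 scale, against 8.56% of all entries tested, and at least 2-fold above in 0 members, against 12.8%. The median difference of replicate 1 minus replicate 2 was -2.83 log2 units in the members and 0.011 over all entries. S100a9 averaged 1 RPKM or more only through knockdown control replicate 2, where it stood at 17.4 RPKM. Its place among the 7 was thus largely set by the filter, and the median rests in part on it. The KAI1 knockdown libraries were closer to each other, with log2 gaps of 0.67 for Mpo, 0.03 for Ctsg and 0.02 for Ms4a3 and, at the upper end, 1.33 for S100a9. Replicate 1 of the knockdown was at least 2-fold above replicate 2 in 1 of the 8 members, against 0.89% of all entries, and at least 2-fold below in 1, against 1.64%. Without knockdown control replicate 2, limma called 4 of the 8 members, against 10.3% of all entries: Mpo at 6.07 (adjusted p = 0.0169), Ms4a3 at 3.08 (adjusted p = 0.0169), Lyz2 at 3.16 (adjusted p = 0.023) and Ctsg at -1.30 (adjusted p = 0.0347). Without knockdown control replicate 1 the difference of Mpo was 0.14 and that of Ms4a3 was -0.56, and 0 of 8 were called, against 0.158% of all entries. Each of these fits has a single control, which is assumed to vary like the knockdown libraries.

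In the overexpression arm, 6 of the 10 members averaged 1 RPKM or more. Of these 4 were at least 2-fold lower on the RPKM + 1 scale in KAI1 overexpression, Mpo, Prtn3, Lyz2 and S100a9, against 5.21% of 9936 entries. At least 2-fold higher were 0 members, against 4.92%. The median log2 ratio was -1.99 in the members and 0.006 over all entries measured. Prtn3, Lyz2 and S100a9 averaged 1 RPKM or more only through the overexpression control. Their place among the lower genes was thus largely set by the filter, and the count and the median rest in part on them. With 1 library on each side these differences have no replicate check. These differences were set beside the gap between the 2 knockdown controls. In RPKM, Mpo was 14.4-fold lower in KAI1 overexpression than in its control, a smaller fold than the 68.7-fold between the knockdown controls. Lyz2 was 29.4-fold lower in KAI1 overexpression, and 12.7-fold lower in knockdown control replicate 1 than in replicate 2. About 4 and 12 reads lay behind those low values. On the log2(RPKM + 1) scale both gaps were -2.29. Whether Lyz2 exceeded the gap between the controls thus depends on the scale. Prtn3 and S100a9 were listed at 0 in KAI1 overexpression and in knockdown control replicate 1, so their folds are set by the pseudocount and were not compared.

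In these bulk libraries, fewer cells of a type and less RNA per cell cannot be told apart. Summed RPKM of the 9 mast cell and basophil markers was 4655 and 3898 in KAI1 knockdown and 42469 and 7538 in the knockdown control. It was 17045 in KAI1 overexpression and 3673 in the overexpression control. The 7 erythroid markers with an entry summed to 2359 and 2697 in KAI1 knockdown, 164 and 2832 in the knockdown control, 682 in KAI1 overexpression and 2210 in the overexpression control. The mast cell sum was thus highest, and the erythroid sum lowest, in the libraries where Mpo was low. Abundant genes such as Cma1 and Hbb-bt carry much of these sums, and not every listed gene followed its sum. Gata1 and Epor peaked in knockdown control replicate 1 (87.3 and 15.6 RPKM), though both were lowest under KAI1 overexpression (32.3 and 2.27 RPKM). Mcpt8 peaked under KAI1 overexpression (3908 RPKM). Its level was lower in knockdown control replicate 1 than in replicate 2 (160 against 389 RPKM). Macrophage markers summed to between 0.0469 and 3.25 RPKM, with Mrc1 and C1qa listed at 0 in every library. Lymphoid markers summed to between 1.02 and 10.2 RPKM, with Cd3e listed at 0. The eosinophil genes summed to between 0.691 and 2.98 RPKM, with Epx, Ear1, Ear2 and Ear6 listed at 0 in every library. The part of these cell types in the values of the granule genes was not tested.

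The genes next to the members on the chromosome did not share 1 pattern. Within 100 kb of Ctsg lie mast cell and basophil proteases of the same chymase locus. Mcpt4, a mast cell chymase 37.6 kb away, stood at 66.8 and 165 RPKM in KAI1 knockdown and 9416 and 221 RPKM in the knockdown control, and at 240 RPKM in KAI1 overexpression and 23.2 RPKM in the overexpression control. Mcpt8, 14.7 kb away, stood at 234 and 116 RPKM in KAI1 knockdown and 160 and 389 RPKM in the knockdown control, and at 3908 RPKM in KAI1 overexpression and 491 RPKM in the overexpression control. Ctsg, whose range was 2.98-fold, varied less than either neighbour.

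Ms4a2, the beta chain of the IgE receptor, lies 5.85 kb from Ms4a3. Ms4a2 stood at 1.25 and 2.71 RPKM in KAI1 knockdown and 39.6 and 3.71 RPKM in the knockdown control, and at 5.86 RPKM in KAI1 overexpression and 0.443 RPKM in the overexpression control. It was highest in knockdown control replicate 1, where Ms4a3 was lowest. S100a6, a calcium-binding gene 54.7 kb from S100a8, stood at 188 and 318 RPKM in KAI1 knockdown and 2512 and 266 RPKM in the knockdown control, and at 1919 RPKM in KAI1 overexpression and 215 RPKM in the overexpression control. S100a6 was highest in the libraries where S100a8 was listed at 0. Lpo, which encodes lactoperoxidase and lies 2.02 kb from Mpo, stayed at or under 0.265 RPKM in all 6 libraries.

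**Figure D3:**
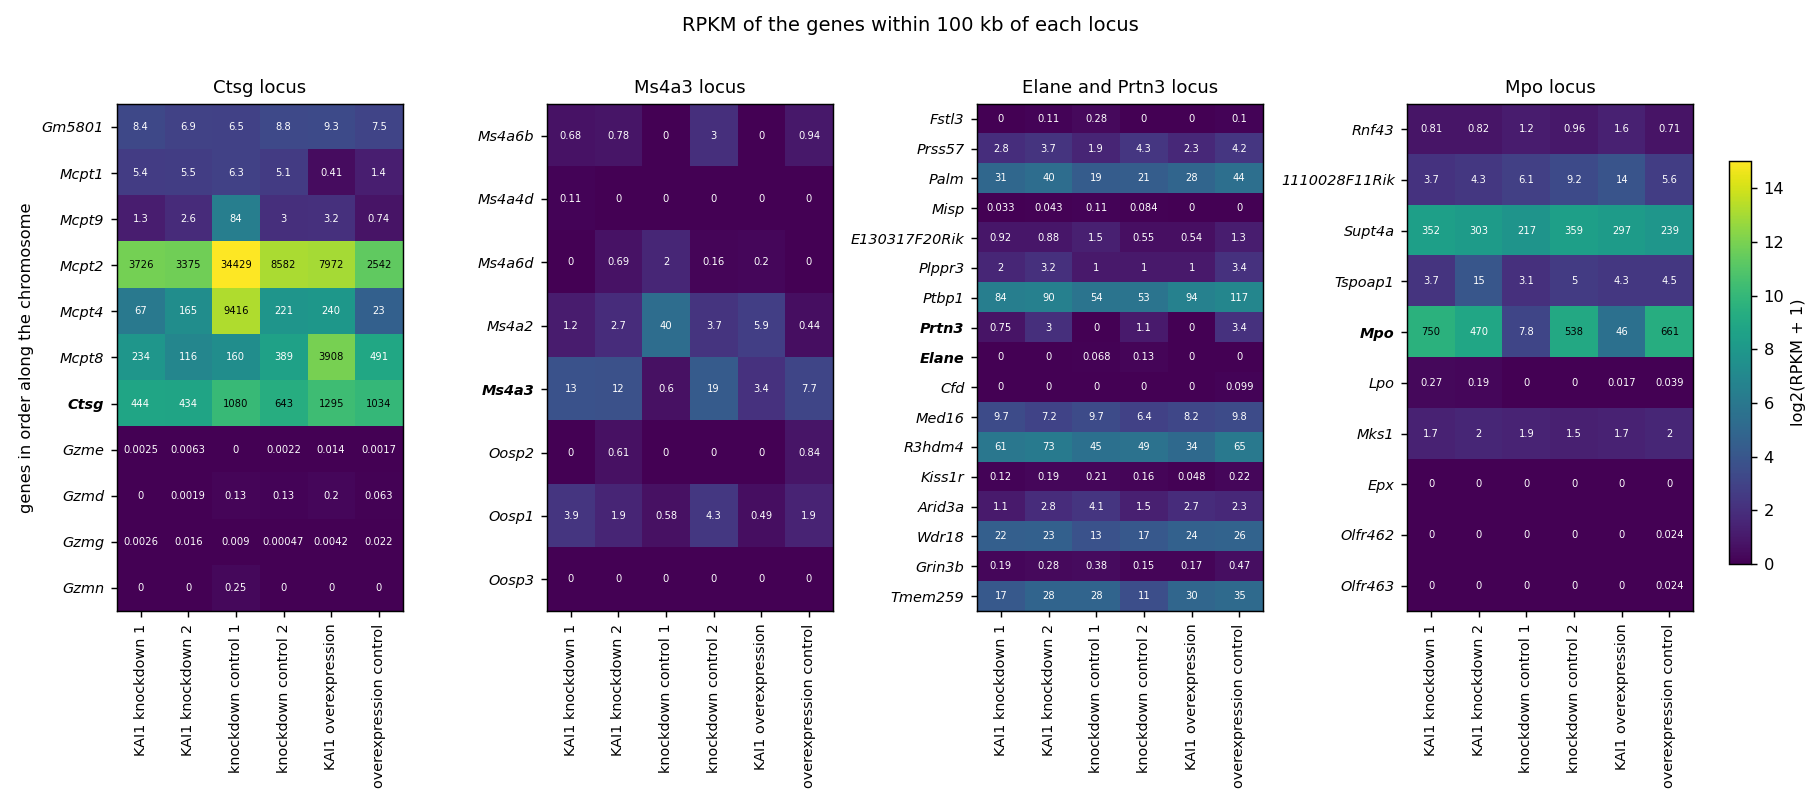
Genes within 100 kb of Ctsg, Ms4a3, Elane with Prtn3, and Mpo, in chromosome order with the members in bold; each column is 1 of the 6 EML libraries, colour gives log2(RPKM + 1) and the printed number is RPKM. Mcpt4 reached 9416 RPKM and Ms4a2 39.6 RPKM in knockdown control replicate 1, where Ms4a3 stood at 0.601 RPKM.

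The members also varied together in part. Over the 6 libraries, log2(RPKM + 1) of Lyz1 and Lyz2 had a Pearson correlation of 0.97, Mpo had 0.88 with Lyz2 and 0.78 with Prtn3, and S100a8 had 0.76 with S100a9. Ctsg ran the other way, with -0.66 against Mpo and -0.91 against Lyz2. They describe 6 libraries that share 1 cell line, and no test was made of them.

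The genes most like Mpo were taken from 7025 entries with a symbol and an average of 5 RPKM or more in the 6 libraries. The closest 10 had correlations of 0.990 to 0.995 and were Ctsw, Sash3, Myb, Golm1, Sting1, Ppm1f, Nap1l4, Kat8, Ankrd10 and Dnmt3b. Myb, a transcription factor of blood progenitors, stood at 176 and 145 RPKM in KAI1 knockdown and 48.5 and 139 RPKM in the knockdown control, and at 82.2 RPKM in KAI1 overexpression and 161 RPKM in the overexpression control. Dnmt3b, a DNA methyltransferase, stood at 25.2 and 18.2 RPKM in KAI1 knockdown and 2.58 and 16.3 RPKM in the knockdown control. Both were lowest in knockdown control replicate 1, as Mpo was, which follows from their choice by correlation with Mpo over the same libraries. The closest 10 to Lyz2 had correlations of 0.982 to 0.993. They were Ttll5, 2610507B11Rik, Kctd20, Mrnip, Armcx1, Ascc1, Mtg1, Accs, Mutyh and Apoc1, which encodes an apolipoprotein. Apoc1 stood at 36.3 and 39 RPKM in KAI1 knockdown and 0.428 and 28.4 RPKM in the knockdown control, and at 0.208 RPKM in KAI1 overexpression and 9.77 RPKM in the overexpression control.

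Other genes of the primary granule and the promyelocyte were mixed in their pattern. Of 15 such genes, 8 were tested in the knockdown arm, of which 0 were called by limma, 0 lay above both controls and 4 lay below both. Over all entries tested, 0.0297% were called, 21.5% lay above both controls and 17% below both. Their median log2 difference was -0.46. Ctsc encodes cathepsin C, which activates the granule serine proteases, and stood at 7.67 and 8.03 RPKM in KAI1 knockdown and 30.2 and 14.1 RPKM in the knockdown control (log2 difference -1.29, adjusted p = 0.83 by limma). Serpinb1a, an inhibitor of those proteases, stood at 213 and 269 RPKM in KAI1 knockdown and 2430 and 407 RPKM in the knockdown control, and at 684 RPKM in KAI1 overexpression and 189 RPKM in the overexpression control. Both genes were highest in knockdown control replicate 1, as were Cst7 and Anxa1, at 294 and 49.4 RPKM. Clec12a and Prss57 were lowest there, at 0.265 and 1.91 RPKM, as Mpo was. Cd63 and Nkg7 were neither highest nor lowest there. In the overexpression arm 9 of the 15 were measured, of which 2 were at least 2-fold higher, Ctsc and Serpinb1a, and 1 was lower, Plac8, against 4.92% higher and 5.21% lower over all entries measured. Plac8 averaged 1 RPKM or more only through the overexpression control.

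Of 16 later neutrophil granule genes, 15 had an entry and 13 of these stayed under 1 RPKM in every library. Camp, Chil3, Retnlg, Lrg1 and Itgb2l were listed at 0 in all 6. The 1 gene tested was Pglyrp1, a peptidoglycan-binding protein of neutrophil granules, which stood at 78.2 and 38.5 RPKM in KAI1 knockdown and 0.915 and 53.2 RPKM in the knockdown control (log2 difference 2.46, SE 1.68, adjusted p = 0.83 by limma). It stood at 13.0 RPKM in KAI1 overexpression and 67.6 RPKM in the overexpression control, the same order of libraries as Mpo at the low end.

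Of 17 myeloid factors and receptors, 9 were tested, with 0 called by limma, 1 above both controls and 3 below both, against 0.0297% called, 21.5% above and 17% below over all entries tested. Spi1, the gene of PU.1, stood at 31.9 and 35.6 RPKM in KAI1 knockdown and 36.4 and 16.1 RPKM in the knockdown control, and at 52.5 RPKM in KAI1 overexpression and 46.1 RPKM in the overexpression control. Its lowest value was in knockdown control replicate 2, where Mpo stood at 538 RPKM. Cebpe, a factor of later granule genes, stood at 0.0913 RPKM in KAI1 overexpression and 2.35 RPKM in the overexpression control. In the overexpression arm 12 of the 17 were measured, with 3 at least 2-fold higher, Csf2rb, Csf2rb2 and Cd33, and 1 lower, Cebpe, against the same 4.92% and 5.21%. Cebpe averaged 1 RPKM or more only through the overexpression control. Irf8, a factor of monocytes, was listed at 0 in all 6 libraries.

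**Figure D4:**
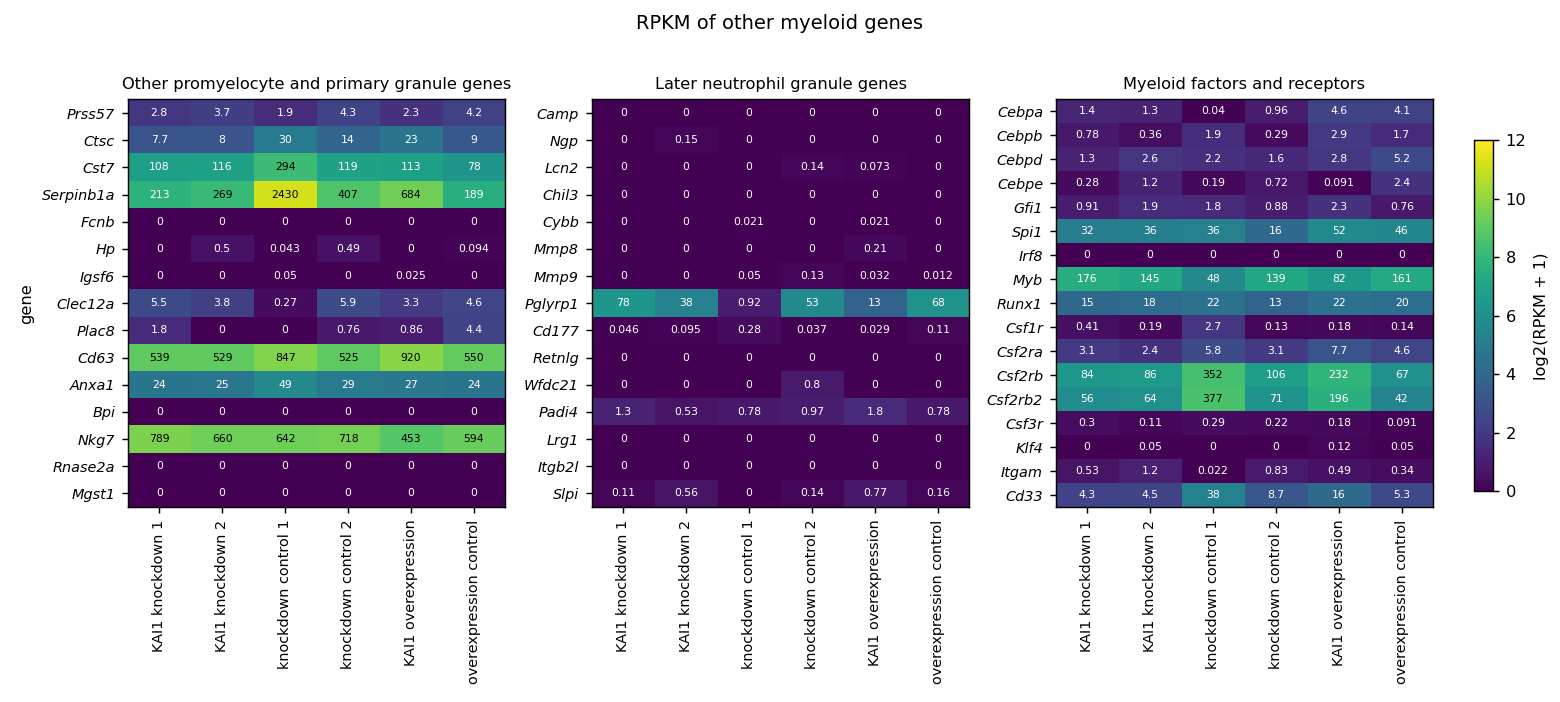
Genes of 3 myeloid lists, 1 panel each; each column is 1 of the 6 EML libraries, colour gives log2(RPKM + 1) and the printed number is RPKM. Pglyrp1 ran between 0.915 and 78.2 RPKM, while Serpinb1a was highest, at 2430 RPKM, in knockdown control replicate 1.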

How the data were processed

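The 6 EML libraries are RNA-seq. Per the file headers, the values the authors deposited are RPKM of transcript entries, 1 table a library. TopHat2 2.0.9, Bowtie, Cufflinks and the build mm9 are named in the submitters' processing notes, without settings. Strandedness and read length are not given in the sources used here. Each table had 23170 entries, of which 24 repeated an accession and locus, leaving 23146. Coordinates are the tables' own on mm9. Starts were raised by 1, because the RefSeq gene length matched end minus start in 8124 entries and matched it after adding 1 in only 523. Symbols came from RefSeq for 22840 entries and from GENCODE for 125.

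RPKM is not a count, so limma 3.58.1 (R 4.3.3) was used for the knockdown. It was fitted with a mean-variance trend to log2(RPKM + 1) of the 10113 entries that averaged 1 RPKM or more in the 4 knockdown-arm libraries. Tests were two-sided with Benjamini-Hochberg adjustment over all of them and a threshold of 0.05. Fold changes on this scale understate the change of low genes. The overexpression arm, 1 library on each side, was described by a 2-fold rule on the RPKM + 1 scale over 9936 entries. Depth was estimated from the steps of low values in 833 entries, with relative depths agreeing within 6.9e-05 percent. Whole reads were not recovered for all entries, and no count test was run. An exact 0 in such a table may be a failed estimate. Of 16 housekeeping genes 0 were at 0, but their lowest value was 8.13 RPKM, so they cannot settle this for low genes. The limma script was tested on simulated data, where its pass condition used a spread far smaller than that of these libraries. That condition does not show what the fit can detect at the observed spread.

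All members were described, and listed genes were named or given by count, sum or range. The 10 genes most correlated with Mpo and with Lyz2 were named. The members and lists were chosen with earlier results of these data known, and the neighbours within 100 kb, the likeness between members, the search of the start regions and the stretches of the lysozymes were chosen after values were seen. A gene start region was found for 10 of 10 members in RefSeq (GRCm38.p6), and coding sequences were taken from GENCODE M21 (GRCm38). Alternatives were another pseudocount, other filters, quantile normalization, no trend, a replicate block and leaving out each library.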

Additional observations from a re-analysis of the deposited data

How the results depend on the processing

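Of the alternatives for the knockdown differences of the 8 members tested, 67 kept their direction and their side of the threshold, 4 passed the threshold only without knockdown control replicate 2, and 5 reversed. S100a8 turned to 1.08 with a pseudocount of 0.1, to 0.12 without KAI1 knockdown replicate 1 and to 1.58 without knockdown control replicate 2. S100a9 turned to 0.67 without knockdown control replicate 2, and Ms4a3 to -0.56 without knockdown control replicate 1. The cause was not tested. With a pseudocount of 0.1 the differences of Prtn3 and Lyz1 kept their direction and became 2.24 and 2.23, with an adjusted p of 0.828 each by limma. With each library left out in turn, the difference of Mpo ran between 0.14 and 6.07, that of Ctsg between -1.30 and -0.55, that of Lyz2 between 0.88 and 3.16, that of Lyz1 between 0.35 and 1.71, that of Prtn3 between 0.28 and 1.48, that of Ms4a3 between -0.56 and 3.08, that of S100a8 between -1.80 and 1.58 and that of S100a9 between -3.53 and 0.67. The count of entries called by limma was 3 and became 5 with a pseudocount of 0.1 and 0 with no filter, where 683 had an unadjusted p under 0.05. It ran between 0 and 1045 with each library left out.

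The replicate numbers do not pair the samples by any label, and deviations of the replicate 1 libraries of both groups correlated at -0.08. With a replicate block, 4 entries and 0 members were called, and the Lyz2 interval became 0.13 to 3.91 (adjusted p = 0.999 by limma).

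The count of entries at least 2-fold apart in the overexpression arm was 1007 and fell to 654 when a mean of 5 RPKM was required. Of the members' ratios, 18 stayed and 3 moved with a pseudocount of 0.1, to -5.11 for Prtn3, -4.20 for Lyz2 and -4.77 for S100a9. With a mean of 5 RPKM required, Prtn3, Lyz1, S100a8 and S100a9 gave no knockdown value and Prtn3, Lyz2 and S100a9 no overexpression ratio. Depth limits Elane, Ltf and the low values of Prtn3, Lyz1 and the S100 genes, which rest on few reads.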
